A study of Homo sapiens with 4 samples.

Results

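The plasminogen activator system was described here through 6 genes, matched by symbol to the Ensembl identifiers of the deposited counts of reads per gene. These were PLAU, PLAT, PLAUR, SERPINB2, SERPINE2 and SERPINB5, out of 67008 genes in the table, and all 6 passed the filter on low counts that left 14303 genes for testing. RNA-sequencing was performed on the human SAS line, from a squamous carcinoma of the tongue, infected with virus carrying an shRNA against luciferase (Ctrl, 2 libraries) or an shRNA against STAU1 (shSTAU1, 2 libraries), with WT given as the genotype of all 4. The cells were grown in DMEM with serum, and the libraries were made by exome capture of total RNA. The cell line field of the labels names C3H 10T1/2, a mouse fibroblast line, whereas the organism is human and the growth protocol names SAS. A single shRNA was used against STAU1, and neither the labels nor the methods say whether the replicates came from separate infections, so p-values measure the spread between these libraries, which may be technical.

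Plasminogen activators are serine proteases that cut the zymogen plasminogen into plasmin, a broad protease that dissolves fibrin, degrades matrix proteins and activates other proteases. Urokinase (uPA, from PLAU) acts mainly at the cell surface, where it is held by its receptor uPAR (from PLAUR), and tissue-type activator (tPA, from PLAT) acts mainly on fibrin. Serpins stop these proteases by forming a covalent complex with them. PAI-2 (SERPINB2) and protease nexin-1 (SERPINE2) inhibit the activators, whereas maspin (SERPINB5) belongs to the same clade as PAI-2 but is regarded as a serpin without inhibitory activity, expressed in epithelial cells. In squamous carcinomas uPA and uPAR are known for their part in invasion. STAU1 itself binds double-stranded RNA and acts in the transport and decay of mRNAs.

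The promoter sequences are shown for the urokinase gene, its receptor and the clade B serpins. In PLAU and PLAUR both shSTAU1 libraries lay below both Ctrl libraries, as in 28.0% of tested genes. In SERPINB5 both lay above, and in SERPINB2 the groups overlapped. Of all tested genes, 56.6% had groups that did not overlap, in either direction. Windows of 250 bases before and 50 bases after the start of transcription were taken from RefSeq (GRCh38.p14), and used for 5 of the 6 genes, while the promoter of PLAT was not analysed here. Where a gene had several the nearest to the start in GENCODE 29 was used. Capitals mark matches to the AP-1 motif TGANTCA, the GC box GGGCGG (both strands) and the TATA box TATAAA (strand of the gene). The windows are written 5′ to 3′ on the strand of the gene, which is plus at chr10:73910882-73911181 for PLAU, minus at chr19:43670120-43670419 for PLAUR, plus at chr18:63887455-63887754 for SERPINB2 and plus at chr18:63476708-63477007 for SERPINB5.
PLAU: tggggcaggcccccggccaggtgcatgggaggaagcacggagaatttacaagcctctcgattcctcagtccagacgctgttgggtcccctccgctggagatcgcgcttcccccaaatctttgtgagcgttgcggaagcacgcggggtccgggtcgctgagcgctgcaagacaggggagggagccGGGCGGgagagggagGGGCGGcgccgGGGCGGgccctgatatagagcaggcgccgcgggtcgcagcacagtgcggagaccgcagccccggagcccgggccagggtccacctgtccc
PLAUR: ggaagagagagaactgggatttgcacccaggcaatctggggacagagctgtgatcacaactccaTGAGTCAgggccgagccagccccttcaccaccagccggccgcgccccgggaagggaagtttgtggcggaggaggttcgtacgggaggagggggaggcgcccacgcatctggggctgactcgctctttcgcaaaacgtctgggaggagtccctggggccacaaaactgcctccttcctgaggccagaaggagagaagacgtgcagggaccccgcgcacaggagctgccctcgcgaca
SERPINB2: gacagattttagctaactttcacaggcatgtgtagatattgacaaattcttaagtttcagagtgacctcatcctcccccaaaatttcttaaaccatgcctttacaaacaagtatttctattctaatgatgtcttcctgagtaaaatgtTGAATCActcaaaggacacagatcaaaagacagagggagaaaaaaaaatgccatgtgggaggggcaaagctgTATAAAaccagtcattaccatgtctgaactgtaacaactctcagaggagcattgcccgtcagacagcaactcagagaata
SERPINB5: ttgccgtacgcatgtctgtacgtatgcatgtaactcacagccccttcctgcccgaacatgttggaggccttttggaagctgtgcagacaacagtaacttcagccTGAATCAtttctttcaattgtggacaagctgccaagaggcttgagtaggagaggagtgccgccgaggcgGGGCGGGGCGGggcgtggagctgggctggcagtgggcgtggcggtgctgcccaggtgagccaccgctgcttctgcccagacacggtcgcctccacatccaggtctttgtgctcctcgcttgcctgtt

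The windows of PLAUR, SERPINB2 and SERPINB5 each held 1 AP-1 match, with first bases at -186, -102 and -146 from the RefSeq start. That start lay 181, 0 and 197 bases from the GENCODE start in these genes, 25 bases in PLAU and 679 bases in SERPINE2. In SERPINB5 the RefSeq start was the downstream one, so the AP-1 match and the GC boxes in its window lay after the GENCODE start. Of all 35116 RefSeq windows of this length, 7.71% held at least 1 AP-1 match. The PLAU window held no AP-1 match and 3 GC boxes, a motif that 15786 of all windows held, and the window of SERPINE2 held 2 GC boxes and no AP-1 match. Among the genes with an AP-1 match, PLAUR fell, and the changes of SERPINB2 and SERPINB5 did not pass the threshold given below. The part of AP-1 in these values was not tested. Of the 5 genes searched, only SERPINB2 had the TATA box in its window, which 7.33% of windows held. Neither the TEAD motif GGAATG nor the cAMP-response motif TGACGTCA was found in these windows. The words match by letters only, and binding was not measured.

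The knockdown was examined first. STAU1 (ENSG00000124214) had 249 and 251 CPM (counts scaled to a common library size by edgeR's TMM method) in Ctrl and 41.6 and 41.5 CPM in shSTAU1. This was 16.6% of the control level, with a log2 fold change of -2.59, a standard error of 0.13 and 0.00103 as the adjusted p (quasi-likelihood test of edgeR). The totals ran from 32206655 to 36301574 counts per library. Squamous epithelial markers were abundant, with a sum over 7 genes of 7439 and 7038 CPM in Ctrl and 11222 and 8585 CPM in shSTAU1, and KRT5 among them rose (log2 fold change 0.65, adjusted p = 0.0408 by edgeR). This call was lost without Ctrl replicate 1 (adjusted p = 0.230), without Ctrl replicate 2 (0.169), with library size only (0.0523) and without the filter on low counts (0.0989). Without KRT5, a choice made after seeing the data, the sum was 4203 and 3651 CPM in Ctrl and 5734 and 3692 CPM in shSTAU1, so the groups overlapped. KRT14 had 802 and 559 CPM in Ctrl and 1625 and 901 CPM in shSTAU1. Its log2 fold change was 0.89, with an adjusted p of 0.112 by edgeR and 0.00602 by DESeq2. KRT6A, TP63 and KRT17 had log2 fold changes of 0.14, 0.30 and 0.28, and CDH1 and EPCAM had -0.29 and 0.03. Of 6 fibroblast markers, COL3A1, DCN and LUM had at most 1 count in any library, and the sum of the list was 17.3 and 22.6 CPM in Ctrl and 10.7 and 10.1 CPM in shSTAU1, most of it from COL1A1, which fell (adjusted p = 0.0360 from the same edgeR test, and 0.0928 without Ctrl replicate 2 and 0.0989 without the filter). COL1A2 had 1.19 and 1.68 CPM in Ctrl and 2.15 and 3.62 CPM in shSTAU1, with a log2 fold change of 1.01 (adjusted p = 0.185). Of the leukocyte and endothelial markers, PTPRC, CD68 and PECAM1 also had at most 1 count in any library, and the others were detected. VWF ran from 3.11 to 13.6 CPM and CDH5 from 4.30 to 7.02 CPM, with overlapping groups. CD14, with 5 to 40 counts per library, was higher in both shSTAU1 libraries (log2 fold change 2.36, adjusted p = 0.111 by edgeR). CSF1R, at 1.36 to 2.85 CPM, was lower in both (-0.59, adjusted p = 0.373 by edgeR). Neither passed. The endothelial sum was 18.0 and 15.3 CPM in Ctrl and 17.0 and 7.44 CPM in shSTAU1, the leukocyte sum was 1.78 to 3.10 CPM in the 4 libraries, and the part of these in the results was not tested.

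Of the 6 genes, PLAT and PLAUR fell after STAU1 knockdown, none rose, and the other 4 did not pass the threshold of 0.05 on the adjusted p. Over all tested genes 2.60% passed it, 1.48% lower and 1.13% higher. The balance of the 161 higher and 211 lower genes moved with the scaling, to 132 and 272 with library size only and 184 and 161 after correcting for GC content and transcript length. The median log2 fold change was -0.65 over the 6 genes, which were chosen with earlier results of these data known, and 0.01 over all tested genes. In PLAT, PLAUR and PLAU both shSTAU1 libraries lay below both Ctrl libraries, as in 28.0% of the tested genes, in SERPINB5 both lay above, and in SERPINB2 and SERPINE2 the groups overlapped. Groups that do not overlap, in either direction, were found in 56.6% of tested genes. For 1 gene alone, 2 libraries against 2 leave 0.333 as the smallest p of an exact two-sided permutation test, and the p-values given come from edgeR, which borrows the spread from all genes. In bulk RNA a lower count from fewer expressing cells and from less RNA per cell cannot be told apart.

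**Figure D1:**
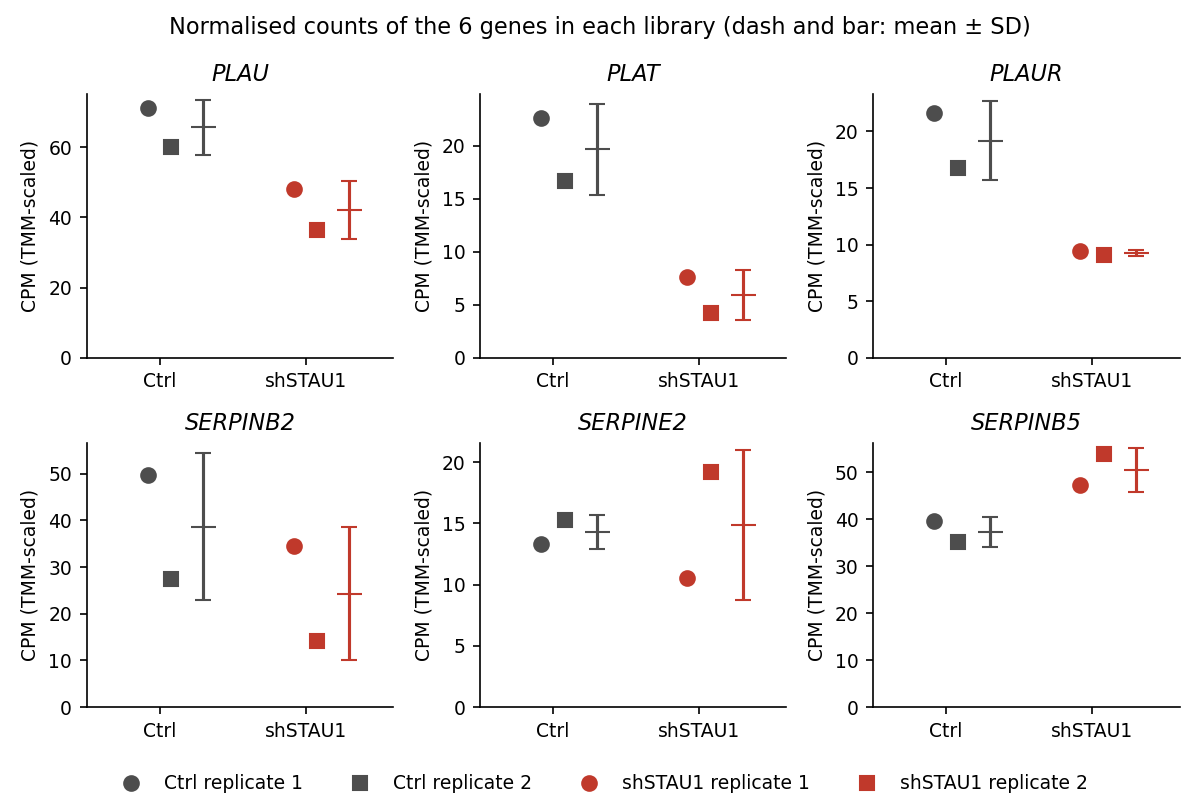
Normalised counts (CPM, vertical axes starting at 0) of the 6 genes in the 2 Ctrl (grey) and 2 shSTAU1 (red) libraries, with circles for replicate 1, squares for replicate 2, and the mean ± SD (n = 2) beside them. The groups are apart for PLAU, PLAT, PLAUR and SERPINB5, and they overlap for SERPINB2 (14.2 to 34.4 CPM in shSTAU1, 27.5 to 49.8 CPM in Ctrl) and SERPINE2.

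PLAT, the gene of tissue-type plasminogen activator, showed the greatest fall of the 6. Its counts were 762 and 545 in Ctrl and 264 and 150 in shSTAU1, which after scaling was 22.7 and 16.6 CPM against 7.58 and 4.24 CPM. The lower Ctrl library was thus well above the higher shSTAU1 library, though the shSTAU1 libraries also differed from each other. The mean went from 19.7 ± 4.25 to 5.91 ± 2.36 CPM (SD, n = 2 each), to 30.1% of the control level. The log2 fold change of -1.73 (standard error 0.31, 95% interval -2.45 to -1.01) had an adjusted p of 0.0368 by edgeR, the 245th smallest p of the 14303 genes. It kept its direction and passed the threshold with each library left out in turn, at -2.21 to -1.39. PLAT (ENSG00000104368) lies on the minus strand of chromosome 8 between 42175233 and 42207724 (GRCh38).

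PLAUR, which encodes the urokinase receptor, a protein anchored in the membrane by a lipid, was also lower. It had 728 and 548 counts in Ctrl and 328 and 320 counts in shSTAU1, or 21.6 and 16.7 CPM against 9.42 and 9.06 CPM. The shSTAU1 libraries were nearly equal, and the spread within groups came mostly from the Ctrl libraries. The mean went from 19.2 ± 3.47 to 9.24 ± 0.259 CPM (SD, n = 2 each), 48.1% of the control level, and the log2 fold change was -1.05 (95% interval -1.54 to -0.57, standard error 0.21) with 0.0461 as edgeR's adjusted p. This call was near the threshold. Without Ctrl replicate 1 the log2 fold change was -0.87 and the adjusted p 0.196, and limma-voom gave an adjusted p of 0.0519. Without the filter on low counts neither PLAUR nor PLAT passed (adjusted p = 0.117 and 0.105 from edgeR's test).

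PLAU, the gene of urokinase, had 2389 and 1969 counts in Ctrl and 1673 and 1285 counts in shSTAU1. These correspond to 71.0 and 60.1 CPM against 48.1 and 36.4 CPM, so the groups did not overlap. Its mean went from 65.6 ± 7.71 to 42.2 ± 8.27 CPM (SD, n = 2 each), 64.4% of the control level. The log2 fold change of -0.64 (standard error 0.18, 95% interval -1.05 to -0.22) had an unadjusted p of 0.00827 and an adjusted p of 0.0888 in edgeR's test, short of the threshold. DESeq2 gave an adjusted p of 0.0203. With 1 library left out edgeR's adjusted p was 0.000246 without shSTAU1 replicate 1 (log2 fold change -0.85) but 0.347 without Ctrl replicate 1 (-0.53), 0.158 without Ctrl replicate 2 and 0.0781 without shSTAU1 replicate 2. PLAU (ENSG00000122861) lies on the plus strand of chromosome 10 between 73909177 and 73917497, and PLAUR (ENSG00000011422) on the minus strand of chromosome 19 between 43646095 and 43670547 (GRCh38). C10orf55, a gene on the opposite strand that overlaps PLAU, had at most 5 counts in any library.

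SERPINB2 (ENSG00000197632), the gene of PAI-2, an inhibitor of urokinase that is largely kept inside the cell, varied more between libraries of a group than between groups. It had 1675 and 901 counts in Ctrl and 1198 and 501 counts in shSTAU1, or 49.8 and 27.5 CPM against 34.4 and 14.2 CPM. The higher shSTAU1 library thus lay between the Ctrl libraries, while in each pair of same-numbered libraries shSTAU1 was the lower. The log2 fold change was -0.67 (standard error 0.42, 95% interval -1.64 to 0.30, adjusted p = 0.356 from edgeR's test), and the interval runs from 0.320 to 1.23 times the control level. A single library moved this value: it was -0.20 without Ctrl replicate 1 and -0.19 without shSTAU1 replicate 2, and it was -1.45 without shSTAU1 replicate 1, where the adjusted p was 1.2e-06. With the replicate number as a block, the log2 fold change of SERPINB2 was -0.74 (adjusted p = 8.1e-06 from edgeR's test). The column names of the deposited counts open with this number, so each number joins a Ctrl and an shSTAU1 library. Nothing says that the number marks a batch. SERPINB10, which overlaps SERPINB2 on the same strand, had 6 to 15 counts per library.

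SERPINE2 encodes protease nexin-1, a secreted inhibitor of thrombin, urokinase and tPA. It had 448 and 500 counts in Ctrl and 366 and 678 counts in shSTAU1, or 13.3 and 15.3 CPM against 10.5 and 19.2 CPM. The shSTAU1 libraries lay on either side of the Ctrl libraries. The log2 fold change was 0.05 (standard error 0.29, 95% interval -0.62 to 0.73, adjusted p = 0.926 from edgeR's test), and the interval runs from 0.652 to 1.65 times the control level. Its sign depended on the libraries, at -0.46 without shSTAU1 replicate 2 and 0.42 without shSTAU1 replicate 1, and library size in place of TMM also turned it. SERPINE2 (ENSG00000135919) lies on the minus strand of chromosome 2 between 223975112 and 224039319 (GRCh38).

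SERPINB5 (ENSG00000206075), the gene of maspin, was the member with a higher level in both shSTAU1 libraries. It had 1330 and 1150 counts in Ctrl and 1645 and 1905 counts in shSTAU1, or 39.6 and 35.1 CPM against 47.3 and 53.9 CPM. The groups did not overlap, and the mean went from 37.3 ± 3.13 to 50.6 ± 4.70 CPM (SD, n = 2 each), 135% of the control level. The log2 fold change of 0.44 (standard error 0.15, 95% interval 0.08 to 0.79) had an unadjusted p of 0.0216 and an adjusted p of 0.135 in edgeR's test and did not pass. Without shSTAU1 replicate 1 the log2 fold change was 0.53 and the adjusted p 0.0253, and with each of the other libraries left out the adjusted p was 0.262 to 0.561. The squamous marker sum was also higher in both shSTAU1 libraries, though not without KRT5, and KRT14 had a log2 fold change of 0.89. The part of these markers in the values of SERPINB5 was not tested. ATP5MC1P6, a processed pseudogene on the same strand within SERPINB5, had 17 to 41 counts per library.

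**Figure D2:**
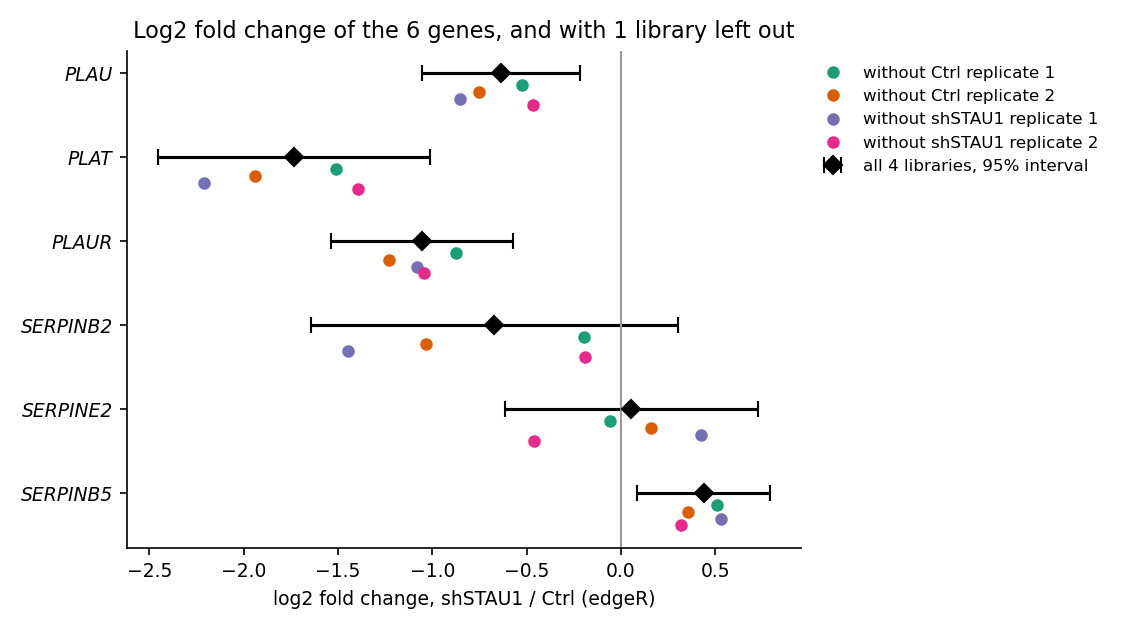
Log2 fold change (shSTAU1 over Ctrl, horizontal axis) of the 6 genes from edgeR with its 95% interval (black diamonds), and the values with 1 library left out (coloured points). All points of PLAU, PLAT and PLAUR lie below 0 and those of SERPINB5 above 0, while those of SERPINE2 run from -0.46 to 0.42 and those of SERPINB2 from -1.45 to -0.19.

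The levels of the genes were compared with each other per transcript length (CPM per kb of the representative GENCODE 29 transcript), a scale that exome capture can distort from gene to gene. In Ctrl the order was PLAU (28.3 ± 3.32), SERPINB2 (17.9 ± 7.31), SERPINB5 (13.4 ± 1.12), PLAUR (12.4 ± 2.24), PLAT (7.26 ± 1.57) and SERPINE2 (6.51 ± 0.628 CPM per kb, SD, n = 2 each). The libraries of SERPINB2, SERPINB5 and PLAUR overlapped each other, as did those of PLAT and SERPINE2, and PLAU was the highest in both libraries. In shSTAU1, PLAU had 18.2 ± 3.56 and SERPINB5 18.2 ± 1.69 CPM per kb, with overlapping libraries. SERPINB2 followed with 11.3 ± 6.64, SERPINE2 with 6.77 ± 2.79, PLAUR with 5.97 ± 0.167 and PLAT with 2.19 ± 0.872 CPM per kb, where SERPINB2 overlapped PLAU and SERPINE2, SERPINE2 overlapped PLAUR, and PLAT was the lowest in both libraries.

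**Figure D3:**
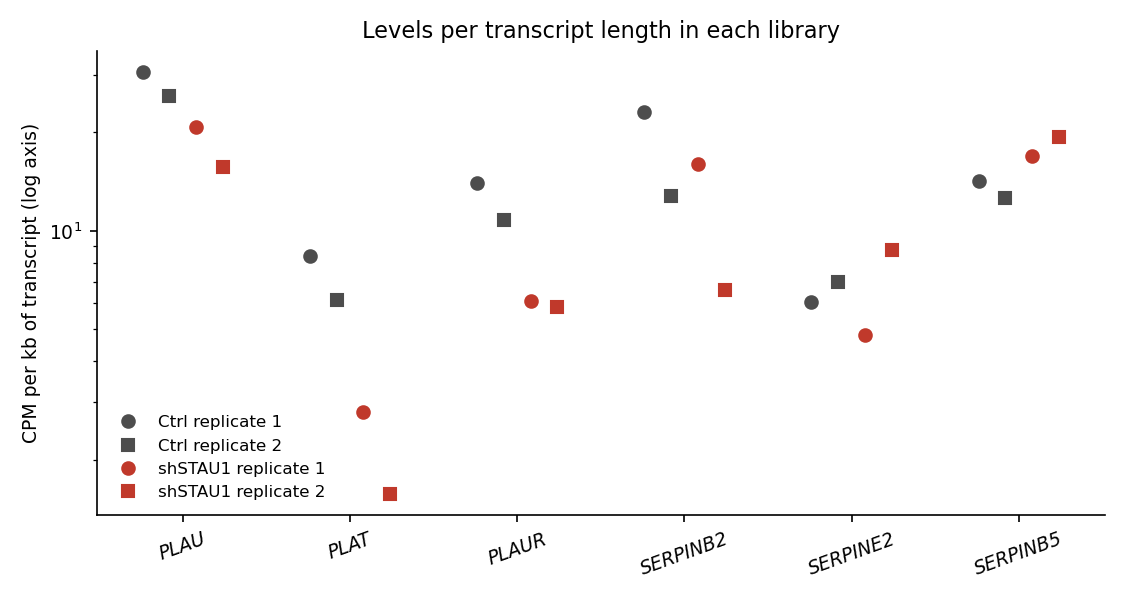
CPM per kb of transcript (log axis) of the 6 genes in each Ctrl (grey) and shSTAU1 (red) library. PLAU is the highest in both Ctrl libraries, at 25.9 and 30.6 CPM per kb, and PLAT is the lowest in both shSTAU1 libraries, at 1.57 and 2.80 CPM per kb.

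The ratios of these levels within a library do not depend on its scaling. PLAU exceeded PLAT 3.66-fold and 4.21-fold in Ctrl and 7.39-fold and 9.98-fold in shSTAU1. PLAU exceeded PLAUR 2.19-fold and 2.40-fold in Ctrl and 3.40-fold and 2.68-fold in shSTAU1, a smaller difference between groups. Neither ratio overlapped between the groups. The share of other gene pairs whose ratios do not overlap was not computed. For single genes, 56.6% of those tested had groups that did not overlap, in either direction. The ratio of SERPINB5 to PLAU was 0.464 and 0.487 in Ctrl and 0.820 and 1.24 in shSTAU1. The ratio of SERPINB2 to PLAU, inhibitor to activator, overlapped between the groups, with 0.755 and 0.493 in Ctrl and 0.771 and 0.420 in shSTAU1. These ratios carry no test.

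Sequences in the 3′ untranslated regions are shown for PLAUR and SERPINB2, which alone among the 6 held the AU-rich word TTATTTATT, a form of the elements through which unstable mRNAs are known to be degraded. The first of the PLAUR lines and the SERPINB2 line show this word in capitals, and the second PLAUR line shows AAGAGAAA, a word that an earlier look at these fold changes had linked to lower levels, so its presence supports nothing here. They lie at chr19:43648601-43648630 (minus strand), chr19:43648701-43648730 (minus strand) and chr18:63903571-63903600 (plus strand) of GRCh38.
PLAUR, AU-rich word: taatattcataTTATTTATTttatacttac
PLAUR, second word: gtgtgaagcagAAGAGAAAagctggaggaa
SERPINB2, AU-rich word: cttttactttgTTATTTATTattttatata

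The 3′ untranslated region of PLAUR is 310 bases long, and of 1003 regions of like length (0.8 to 1.25 times) in tested genes 2.1% held TTATTTATT and 1.7% held AAGAGAAA. That of SERPINB2 is 574 bases long with 71.4% A and T, and 3.4% of the 1335 genes of like length held TTATTTATT. The AAGAGAAA word was in none of the other 5 regions, that of PLAT included. The shorter AU-rich pentamer ATTTA occurred in all 6, with 4 copies in SERPINB2, a number reached by 7.8% of genes of like length, and 1 or 2 copies in the others.

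The other genes of the system were read from lists chosen by role, with earlier results of these data known. Of 39 genes, 29 passed the filter on low counts. Of these, 1 rose (S100A10) and 1 fell (IGF2R), beside 1.13% and 1.48% of all tested genes, with a median log2 fold change of 0.14 against 0.01. PLG, the gene of plasminogen itself, had 0 counts in all 4 libraries, as did SERPINF2, TFPI2 and SERPINB12.

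Among the plasminogen receptors, S100A10, the partner of annexin A2 in the complex that binds tPA and plasminogen, had 40.7 and 35.3 CPM in Ctrl and 65.7 and 61.2 CPM in shSTAU1. Its log2 fold change of 0.74 (standard error 0.15) had an adjusted p of 0.0474 in edgeR's test, and it was short of the threshold without Ctrl replicate 1 (0.83, adjusted p = 0.113), without Ctrl replicate 2 (0.64, adjusted p = 0.248), with library size only (adjusted p = 0.0567) and after correcting for GC content and transcript length (adjusted p = 0.0558). ANXA2, its partner, had 1280 and 1062 CPM in Ctrl and 1507 and 1401 CPM in shSTAU1 (log2 fold change 0.31, adjusted p = 0.211). ENO1, a glycolytic enzyme that also binds plasminogen at the cell surface, had a log2 fold change of 0.35 (adjusted p = 0.125). Neither ANXA2 nor ENO1 passed, and their groups were apart, as in 56.6% of tested genes in either direction. The membrane receptor PLGRKT had 1.73 to 3.96 CPM in the 4 libraries, with overlapping groups.

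Among receptors that bind or clear uPAR complexes, IGF2R, which carries lysosomal enzymes and has been described to bind uPAR and plasminogen, fell. It had 649 and 629 CPM in Ctrl and 388 and 301 CPM in shSTAU1, far apart relative to the spread of either group. Its log2 fold change of -0.89 (standard error 0.15) had an adjusted p of 0.0358 in edgeR's test. It was -0.89 with an adjusted p of 0.0582 without Ctrl replicate 1, -0.91 with 0.0525 without Ctrl replicate 2, and -0.69 with 0.0501 after the length and GC correction. LRP1, the endocytic receptor of urokinase-inhibitor complexes, had 43.5 and 28.9 CPM in Ctrl and 48.8 and 16.3 CPM in shSTAU1, with the Ctrl libraries between the shSTAU1 libraries. LRPAP1, the chaperone of LRP1, had a log2 fold change of 0.46 (adjusted p = 0.178), and MRC2, a collagen receptor that associates with uPAR, had -0.36 (adjusted p = 0.619). VTN, LRP2 and VLDLR had at most 10 counts in any library and were not tested.

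Of the proteases that activate pro-urokinase or plasminogen, 3 of 5 were tested and none passed, nor did their inhibitors. ST14, the gene of matriptase, which activates pro-urokinase, had 126 and 113 CPM against 118 and 84.9 CPM, and its inhibitors SPINT1 and SPINT2 had log2 fold changes of -0.41 and 0.26 (adjusted p = 0.221 and 0.283 from edgeR's test). HPN and F12 were low, at 0.141 to 6.28 CPM, as was the neuronal tPA inhibitor SERPINI1, at 0.833 to 1.39 CPM. A2M, a broad protease inhibitor, had 2.77 and 1.31 CPM in Ctrl and 7.07 and 1.84 CPM in shSTAU1, with overlapping groups.

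Of 11 other clade B serpins, 9 were tested and none passed in edgeR's test, while DESeq2 called SERPINB3 (2.56, adjusted p = 0.00129) and the median log2 fold change was 0.37 against 0.01 over all tested genes. SERPINB2 and SERPINB5 lie in a run of 10 such genes on chromosome 18, with SERPINB5 at position 1 (63476761 to 63505085) and SERPINB2 at position 8 (63871692 to 63903890, both plus strand, GRCh38). Between them, SERPINB13, SERPINB4, SERPINB3 and SERPINB7 had log2 fold changes of 1.39, 2.03, 2.57 and 0.97 (adjusted p = 0.268, 0.245, 0.106 and 0.184 from edgeR's test), beside -0.67 for SERPINB2. SERPINB3 and SERPINB4, the squamous cell carcinoma antigens, had 440 and 257 counts in shSTAU1 replicate 1 and 65 and 21 counts in shSTAU1 replicate 2, so their values rest on the first of these libraries. They are near-identical copies whose reads the counting could split. Without shSTAU1 replicate 1 the log2 fold change was 0.59 for SERPINB3, -0.71 for SERPINB4, 0.25 for SERPINB13 and 0.46 for SERPINB7. SERPINB3 passed without shSTAU1 replicate 2 (3.35, adjusted p = 8.4e-07) and without Ctrl replicate 1 (2.82, adjusted p = 0.0497), and SERPINB4, SERPINB7 and SERPINB13 also passed without shSTAU1 replicate 2. On chromosome 6, SERPINB1, SERPINB9 and SERPINB6 had log2 fold changes of 0.08, -0.37 and 0.37.

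The cell-surface genes of coagulation, which share receptors and inhibitors with the plasminogen system, did not pass. F3, the gene of tissue factor, was among the most abundant mRNAs, with 1509 and 1024 CPM in Ctrl and 1580 and 1034 CPM in shSTAU1 and a log2 fold change of 0.05 (95% interval -0.52 to 0.61, adjusted p = 0.926). Its inhibitor TFPI had 15.3 and 9.62 CPM in Ctrl and 9.74 and 4.44 CPM in shSTAU1 (log2 fold change -0.81, adjusted p = 0.244). THBD and PROCR, which act in protein C activation, had log2 fold changes of -0.28 and 0.14 (adjusted p = 0.372 and 0.707 from edgeR's test).

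**Figure D4:**
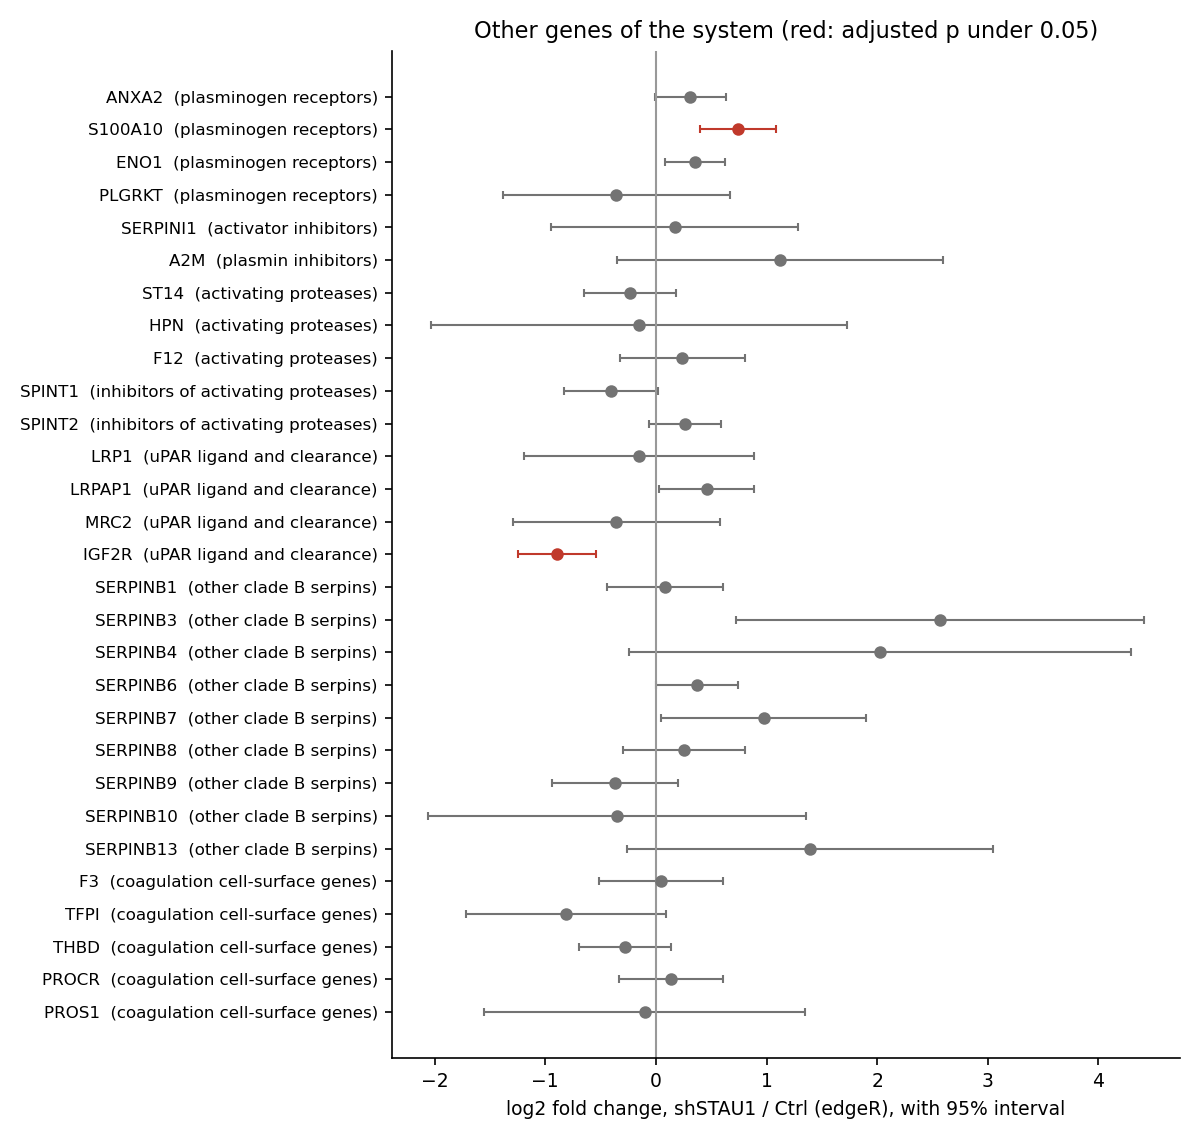
Log2 fold change (shSTAU1 over Ctrl, horizontal axis) with its 95% interval for the 29 tested genes of the lists, from edgeR, with genes under an adjusted p of 0.05 in red. S100A10 (0.74) and IGF2R (-0.89) are the red points. The widest intervals belong to SERPINB4, with 257 and 21 counts in the shSTAU1 libraries, and HPN, with 5 to 13 counts per library.

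The genes most like PLAT and PLAUR over the 4 libraries were found by the Euclidean distance between log2 CPM profiles, each centred on its own mean, among 14302 other tested genes. Nearest to PLAUR was DUSP6, an inducible phosphatase of ERK kinases, with 46.2 and 34.1 CPM in Ctrl and 19.6 and 18.8 CPM in shSTAU1 (distance 0.049). ENSG00000239291 (distance 0.076) and DNMBP (0.104) followed. Nearest to PLAT were GJB2, a gap junction gene, with 2.20 and 1.65 CPM in Ctrl and 0.747 and 0.368 CPM in shSTAU1 (distance 0.072), CPEB2 (0.096) and RASIP1 (0.134). With 4 libraries a profile is little more than the difference between groups and between the libraries of each.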

How the data were processed

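RNA-sequencing libraries of SAS cells (2 Ctrl, 2 shSTAU1) were made with the TruSeq RNA Exome kit. The authors deposited whole-number counts of reads per gene, without normalization. The submitters' processing notes name Partek and hg38, and the aligner, counter and strand setting are not given in the sources used here. All sample columns were mapped by their descriptions.

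The analysis used edgeR 4.0.16 under R 4.3.3. The filterByExpr function at default settings left 14303 of 67008 genes, which hold 99.9% of the counts. Libraries were scaled by TMM, and shSTAU1 was compared with Ctrl by the quasi-likelihood test without covariates, with Benjamini-Hochberg adjustment over all tested genes and a threshold of 0.05. Intervals of 95% used the moderated degrees of freedom. A chi-square test of the counts (25.5 in Ctrl and 61.9 in shSTAU1 for each degree of freedom) found no library deposited in duplicate, which does not show that the cultures were separate. Members and lists were chosen with earlier results of these data known, and the named genes are the members, the genes of the lists, STAU1, and for members past the threshold the 3 genes nearest in profile. A gene of the lists is not reported here and was left out of their counts. COL1A1 and other markers were named from fixed marker lists. The alternatives were DESeq2 1.42.0, limma-voom (limma 3.58.1), library size only, no filter, the replicate number as a block, other thresholds, a length and GC correction (alone and with the block) and leaving out each library. Positions and 3′ untranslated regions are from GENCODE 29 on GRCh38, with 1 representative transcript per gene, a release that may differ from the one used for the counts.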

Additional observations from a re-analysis of the deposited data

How the results depend on the processing

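Of 14303 genes, 372 passed the threshold, and the number was 1449 with DESeq2, 11 without the filter on low counts, 1585 at an adjusted p under 0.10, 2098 by a criterion of 1.5-fold and an unadjusted p under 0.05, and 214 to 2625 with 1 library left out. The 2 list genes past it became 3 with DESeq2, 1 with library size only, 0 without the filter, 4 by the fold change criterion, 0 with the length and GC correction, and 0 to 8 with 1 library left out. PLAU, short of the threshold, passed with DESeq2 (-0.64), at an adjusted p under 0.10 and by the fold change criterion (both -0.64). Without the filter PLAT (-1.74) and PLAUR (-1.06) did not pass, nor did PLAUR with limma-voom (-1.04). SERPINE2 turned to -0.000587 with library size only and -0.0037 with limma-voom. With 1 library left out the log2 fold changes ran from -0.85 to -0.47 for PLAU, -2.21 to -1.39 for PLAT, -1.23 to -0.87 for PLAUR, -1.45 to -0.19 for SERPINB2, -0.46 to 0.42 for SERPINE2 (-0.06 without Ctrl replicate 1) and 0.32 to 0.53 for SERPINB5. In these fits the lone library of a group was assumed to vary like the others. Apart from the steps that change which genes are tested or the threshold itself, the cause was not tested.

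The libraries share replicate numbers, which also open the column names of the deposited counts, but nothing says that a number marks a batch. The deviations of replicate 1 from its group mean in Ctrl and in shSTAU1 correlated at 0.271 over the 14303 tested genes. With the replicate block 4087 genes and 13 list genes passed, and PLAU (-0.64), SERPINB2 (-0.74) and SERPINB5 (0.44) passed as well. With the replicate block and the length and GC correction together, 4031 genes, 13 list genes, PLAU (-0.63), SERPINB2 (-0.74) and SERPINB5 (0.46) passed.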
